A study of Mus musculus with 7 samples.

Results

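The serpins are a family of protease inhibitors, and their genes were taken here as all probes of the array whose gene name starts with Serpin, a clade letter from a to i and a digit, pseudogenes included. This gave 78 probes of 61 genes, out of 55681 probes and 35666 gene names on the array. Clade A held 24 genes and clade B 27, while clades E, F and I held 2 genes each and clades C, D, G and H 1 gene each. RNA of whole liver was measured in mice at the age of 4 weeks on a C57BL/6J background. The Rbpj+/+ group comprised 4 animals (animals Rbpj+/+_1155, then Rbpj+/+_1156, then Rbpj+/+_1024 and last Rbpj+/+_991), which carried the floxed Rbpj allele without AlfpCre. The Rbpj-/- group comprised 3 animals (Rbpj-/-_N3, Rbpj-/-_N5 and Rbpj-/-_2866), which carried AlfpCre and the floxed Rbpj allele, so that RBPJ, the nuclear effector of Notch signalling, was lost wherever the Alfp promoter had driven Cre in the developing liver. Per the study, Rbpj-/- livers of this age also contained necrotic areas. The labels give cholestasis for each Rbpj-/- animal and no cholestasis for each Rbpj+/+ animal, so loss of Rbpj and cholestasis cannot be told apart in this comparison.

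Most serpins trap a serine protease by offering a reactive loop as bait. Once the loop is cut, the serpin changes its shape and holds the protease in a covalent complex, which is then cleared. Hepatocytes secrete the serpins of blood plasma, which restrain leukocyte elastase, coagulation, fibrinolysis and complement, or carry hormones after having lost the inhibitory function. Clade B serpins lack a classical signal peptide and protect the inside of cells from granule and lysosomal proteases. Rodents carry several duplicated copies of single human genes such as SERPINA1, SERPINA3, SERPINB6 and SERPINB9, and these copies stand next to each other in the genome.

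All values are normalized log2 intensities, that is log2 of the background-subtracted signal of a probe minus the 75th percentile of its array. Differences are the mean of Rbpj-/- minus the mean of Rbpj+/+, so that 1 unit stands for a doubling. The array values in each sentence follow the order of animals given above. Genotypes were compared by limma with Benjamini-Hochberg adjustment over all 24547 tested probes, and an adjusted p below 0.1 was called. By exact permutation of the 7 animals over their 35 possible groupings (two-sided), no p below 0.0286 can be reached, and 19 of the 35 serpin genes tested reached it. The share of all tested genes that reached it was not counted, so the 19 cannot be set against it. Among them, Serpina9, Serpina12, Serpina4-ps1 and Serpinb6d were detected on all arrays of 1 genotype only, which favours separation. Each array is 1 animal, so the small number of arrays sets the precision. Between 41.1% and 64.9% of probes were well above background per array, with brighter dim probes on the arrays of Rbpj+/+_1156 and Rbpj-/-_N3. All arrays lay on 1 slide, with Rbpj+/+ in one row and Rbpj-/- in the other, so an effect of the row cannot be told apart from that of the genotype. The Rbpj probe read 0.97, 0.29, 0.33 and 0.81 in Rbpj+/+ and -0.35, -0.78 and -0.48 in Rbpj-/- livers (adjusted p = 0.0115), but it was not matched to the deleted exons here. In whole tissue, fewer cells of a type and less RNA per cell cannot be told apart, which holds for every gene below.

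Of the 61 serpin genes, 35 had a probe that was detected on all arrays of at least 1 genotype and could be tested. Among them 26 were called (adjusted p below 0.1), 11 higher and 15 lower in Rbpj-/- livers. Of all 18754 tested genes, 34.2% were called, 14.6% higher and 19.5% lower. Since 7 of the 35 passed the filter through 1 genotype only, the 28 serpin genes detected in both genotypes were also counted. Of these, 9 were higher and 12 were lower, where 33.3% of all genes detected on the 7 arrays were called in either direction. The animals of the genotypes did not overlap for 24 of the 35 genes, against 36.6% of all tested genes, and a log2 difference of at least 1 was called for 17, against 16.1%. These shares are descriptions, as many serpin genes are neighbours, share sequence and share the hepatocyte as their source. The median difference of the 35 genes was -0.21, and that of all tested genes was -0.13.

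**Figure D1:**
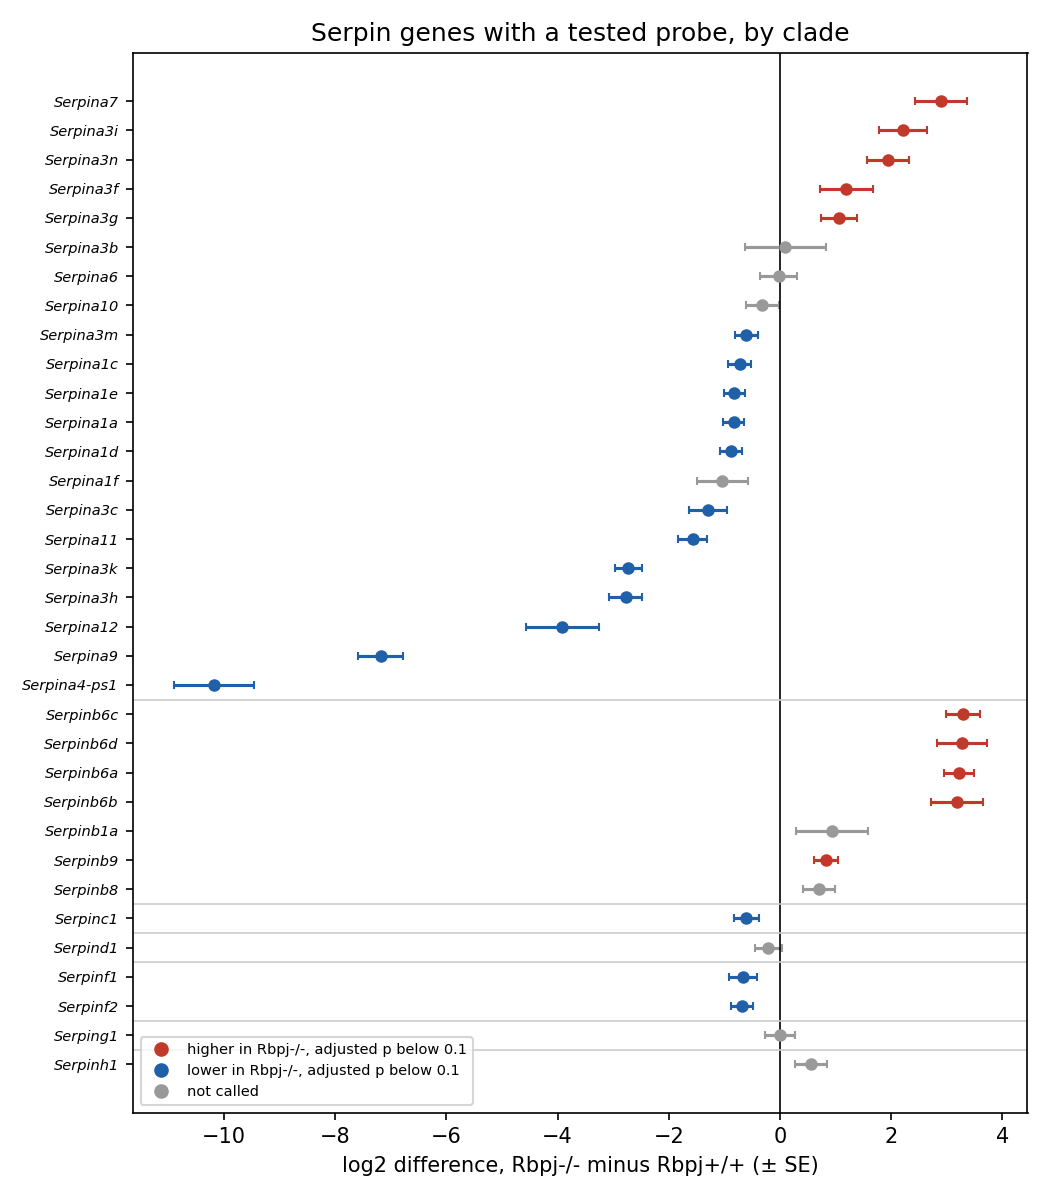
Log2 difference (Rbpj-/- minus Rbpj+/+, with SE) of 34 serpin genes that could be tested, in the order of clades A to H from top to bottom, separated by grey lines. Clade A spreads from -10.18 (Serpina4-ps1) to 2.90 (Serpina7), while all 7 tested clade B genes lie above 0. Serpina9, Serpina12 and Serpinb6d are drawn at their measured differences, although 1 genotype was not well above background.

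The clades were counted separately, and the difference between them was not tested. In clade A, 12 genes were lower and 5 were higher, and 4 were not called. Among the 16 genes of clade A detected in both genotypes, 9 were lower and 5 were higher. In clade B, 5 genes were higher and none was lower by limma, with 6 of the 7 at an unadjusted p below 0.05, all of them higher. Among the 6 genes of clade B detected in both genotypes, 4 were higher. The single genes of the remaining clades were mostly plasma proteins with small differences.

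Under quantile normalization in place of the 75th percentile, the split turned from 11 higher and 15 lower to 12 higher and 7 lower serpin genes. All tested genes turned the same way, from 2741 higher and 3665 lower to 3117 higher and 2846 lower. The genes concerned had falls below 1 on the log2 scale, and the larger differences kept their calls. The median of all tested genes moved from -0.13 to -0.04 with this choice, while some serpin probes moved further, such as that of Serpina1e from -0.82 to -0.02. Called falls of serpin genes below 1 on the log2 scale are therefore given below with this second value. Falls of this size in genes outside the family are given without it, so they are stated relative to the 75th percentile only.

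**Figure D2:**
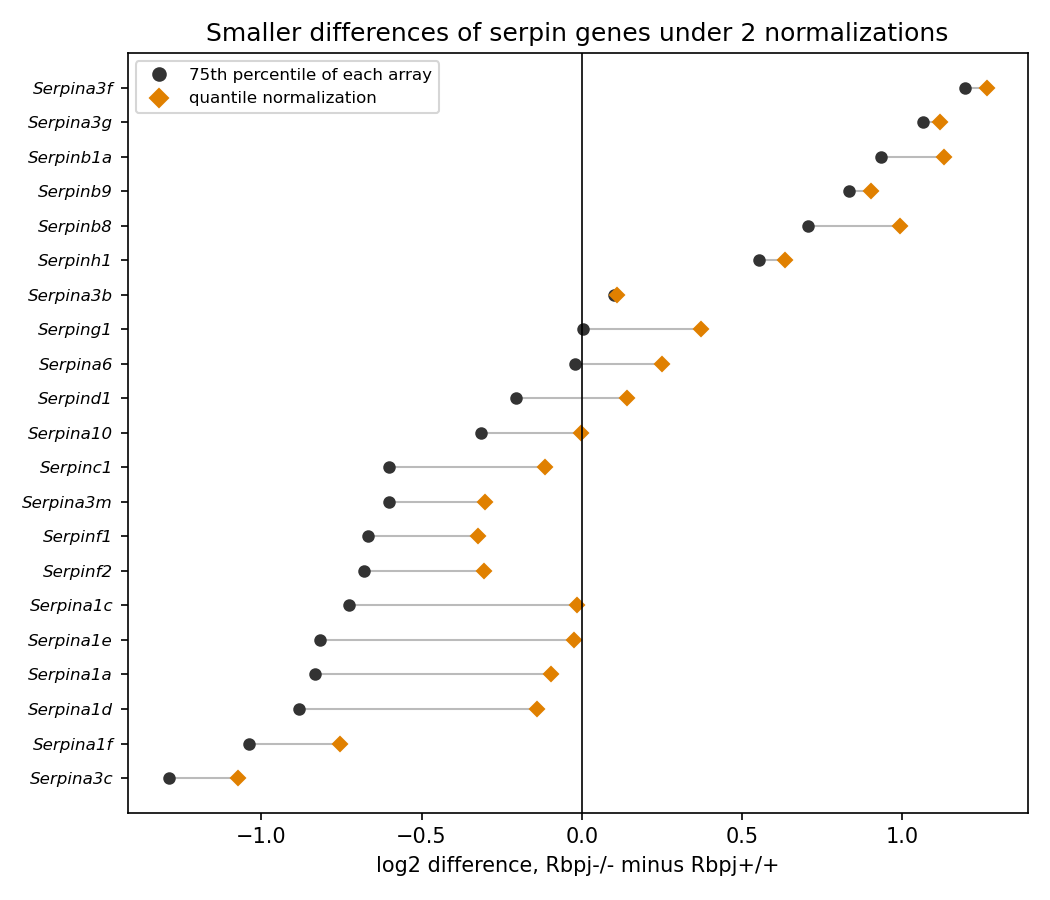
Log2 differences of the 21 tested serpin genes with a difference below 1.4 in size, with the 75th percentile of each array (circles) and with quantile normalization (diamonds). The 4 Serpina1 genes and Serpinc1 move close to 0 on quantile normalization, whereas Serpina3c stays at -1.07.

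Serpina1 genes encode alpha-1 antitrypsin, the main plasma inhibitor of neutrophil elastase, and are copies of 1 human gene. Serpina1a, Serpina1c, Serpina1d and Serpina1e were called lower in Rbpj-/- livers, by 1.65-fold to 1.84-fold. Serpina1a read 10.22, 10.25, 10.56 and 10.34 in Rbpj+/+ and 9.33, 9.57 and 9.63 in Rbpj-/- livers (difference -0.83, SE 0.19, limma adjusted p = 0.0147). Serpina1c read 10.15, 10.16, 10.64 and 10.45 against 9.50, 9.61 and 9.76 (-0.73, SE 0.20, adjusted p = 0.0314). The genotypes did not overlap for either gene. Serpina1d read 10.02, 9.96, 10.47 and 10.19 against 9.14, 9.32 and 9.39 (-0.88, SE 0.20, adjusted p = 0.0150). Serpina1e read 10, 10.02, 10.46 and 10.16 against 9.22, 9.35 and 9.46 (-0.82, SE 0.19, adjusted p = 0.0185), and neither of these genes overlapped between genotypes. Second probes of Serpina1a, Serpina1d and Serpina1e gave -0.68, -0.87 and -1.03 and were called as well. On quantile-normalized values the differences of Serpina1a, Serpina1c, Serpina1d and Serpina1e were -0.09, -0.02, -0.14 and -0.02, and none was called by limma (adjusted p from 0.452 to 0.938). The fall of these genes thus held relative to the 75th percentile of the array, and Serpina1c lost its call without Rbpj-/-_N3 (adjusted p = 0.101) or Rbpj-/-_N5 (0.101).

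Serpina1f, a related gene of the same cluster, was dim. It read -2.37, -2.07, -2.36 and -1.89 in Rbpj+/+ and -1.96, -3.45 and -4.22 in Rbpj-/- livers, with Rbpj-/-_N3 inside the range of Rbpj+/+ and Rbpj-/-_N5 and Rbpj-/-_2866 below it. The difference of -1.04 was not called (SE 0.46, adjusted p = 0.132), but was called without Rbpj-/-_N3 (-1.66, adjusted p = 0.0131).

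Some probes of these copies are close to each other. The probe of Serpina1c overlaps the second probe of Serpina1a over 51 bases with a single difference, and no probe is named Serpina1b. The probes that gave the array values of Serpina1a, Serpina1d and Serpina1e above shared at most 52.5%, 49.1% and 53.5% of bases with any probe of another serpin gene, while likeness to the transcripts of other copies was not tested. A stretch of 30 bases of the alike pair (5′ to 3′, the differing base in capitals) shows why the signal of either probe cannot be assigned to 1 gene:
Serpina1a second probe, bases 4 to 33: Aatgtcatccttccttctgaattgggttcc
Serpina1c probe, bases 13 to 42: Gatgtcatccttccttctgaattgggttcc

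The promoters of the same copies are alike too. RefSeq promoters (GRCm38.p6, from 250 bases before to 50 after the start of the gene) of Serpina1a, Serpina1c and Serpina1d shared 85.2% to 91.2% of their bases, and that of Serpina1e shared 64.2% to 67.5% with them. The sequence GTTAAT, part of the site of the hepatocyte factor HNF1, was found on either strand in all 4 of them, and in 7.10% of 32851 promoters of the table. The promoter of Serpina1a (chr12:103863570-103863869, minus strand) is printed because 4 genes with this match were called in the same direction, with GTTAAT in capitals:
Serpina1a promoter: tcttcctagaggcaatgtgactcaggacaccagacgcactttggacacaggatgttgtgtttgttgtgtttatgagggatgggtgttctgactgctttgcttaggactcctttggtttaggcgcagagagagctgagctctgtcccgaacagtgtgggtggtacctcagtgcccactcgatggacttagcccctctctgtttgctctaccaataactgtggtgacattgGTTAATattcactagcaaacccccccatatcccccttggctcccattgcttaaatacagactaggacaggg
A promoter was at hand for 10 of the 15 serpin genes that were lower and for 10 of the 11 that were higher, and GTTAAT was present in 5 and 1 of them. The match among the higher genes was in Serpina7, and the lower genes with a match were the Serpina1 copies and Serpina3c.

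Further along the same cluster on chromosome 12, the genes that follow the Serpina1 copies were lower as well. Serpina11, a secreted serpin of liver with little known function, read 7.31, 6.84, 7.16 and 7.15 in Rbpj+/+ and 5.31, 6.11 and 5.20 in Rbpj-/- livers (-1.57, SE 0.26, limma adjusted p = 0.00462). A second probe, which covers nearly the same bases, gave -1.56. Rbpj-/-_N5 was the highest of the Rbpj-/- animals on both probes, and still below each Rbpj+/+ animal.

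Serpina9, known as centerin from germinal centre B cells, read 3.03, 2.02, 1.57 and 2.54 in Rbpj+/+ and -5.50, -4.22 and -4.96 in Rbpj-/- livers. It was well above background on 4 of 4 and 0 of 3 arrays, so only a bound can be given. The level in Rbpj+/+ livers was at least 60.5-fold higher (adjusted p = 6.0e-05) with the main processing. With normexp, another background correction, the log2 difference was -3.29, a smaller fall than this bound, so the bound depends on the processing. For such bounds, the mean of the bright genotype was set against a mean over the dim arrays. Each dim array entered with the higher of its probe signal and its lowest signal that was well above background. An adjusted p beside a bound is that of limma on the measured difference and does not test the bound. Each probe with a bound and a p passed the filter through its bright genotype only, so the filter favoured a difference. As centerin is known from B cells, the B cell markers were read beside it. Of 5 such genes 4 were lower, with means per animal from -1.22 to -0.33 in Rbpj+/+ and from -3.22 to -1.82 in Rbpj-/- livers, and their part in the fall of Serpina9 was not tested.

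Serpina12 encodes vaspin, an adipokine that inhibits kallikrein 7. It read -1.26, -1.09, -1.57 and -0.29 in Rbpj+/+ and -3.12, -6.04 and -5.74 in Rbpj-/- livers, where it was well above background on none of the arrays. The bound was at least 5.69-fold higher in Rbpj+/+ livers (limma adjusted p = 0.00486). With normexp the log2 difference was -1.05, again a smaller fall than the bound.

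Serpina4-ps1 is a pseudogene related to the kallikrein inhibitor kallistatin. It read 5.59, 6.17, 6.76 and 5.76 in Rbpj+/+ and -3.61, -6.14 and -2.59 in Rbpj-/- livers (-10.18, SE 0.72, adjusted p = 0.000205). The size of this fall is uncertain, because the probe was well above background on only 1 of 3 Rbpj-/- arrays. A second probe at nearly the same place gave -9.34 and was well above background on 2 of 3. On both probes the highest Rbpj-/- animal was Rbpj-/-_2866, and the lowest was Rbpj-/-_N5.

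**Figure D3:**
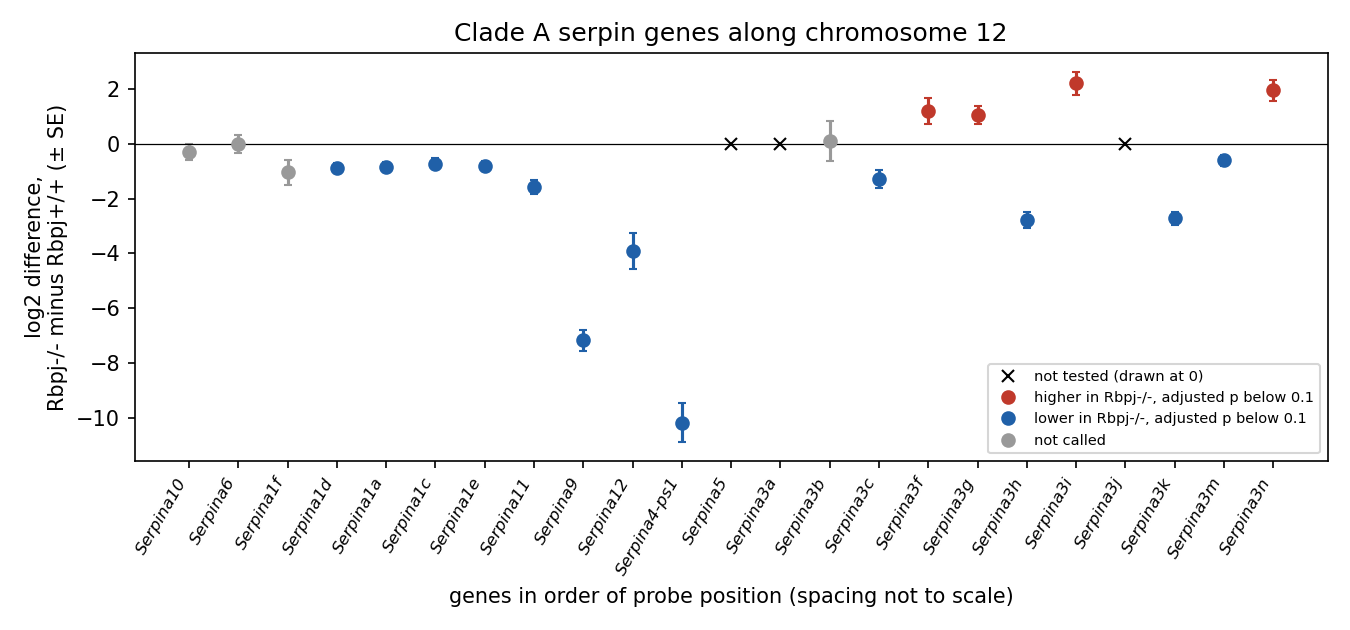
Log2 difference (Rbpj-/- minus Rbpj+/+, with SE) of the clade A genes on chromosome 12 in the order of their probes, with equal spacing and with crosses for 3 genes that could not be tested. The stretch from Serpina1d to Serpina4-ps1 holds 8 genes that were all called lower, whereas higher and lower genes alternate among the Serpina3 copies on the right. Of these 8, Serpina9, Serpina12 and Serpina4-ps1 passed the filter through Rbpj+/+ only. Serpina1a, Serpina1c, Serpina1d and Serpina1e were not called on quantile-normalized values.

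Apart from Serpina7, whose probe had no position in the array's design, all clade A probes with a position lay on chromosome 12. By the coordinates of the design (mm9), the probes that represent the genes span chr12:104854887-105651977, from Serpina10 to Serpina3n. Of the 23 genes in this stretch, 20 were tested, with 12 lower and 4 higher. Among the lower genes, Serpina9, Serpina12 and Serpina4-ps1 passed the filter through Rbpj+/+ only. The 4 higher genes, Serpina3f, Serpina3g, Serpina3i and Serpina3n, belong to the Serpina3 group.

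Serpina3 genes are the mouse copies of SERPINA3, the inhibitor of chymotrypsin-like proteases, and their reactive loops and hence their targets have diverged. Next to each other, these copies changed in opposite directions. Serpina3k, a serpin of liver and plasma known as a binding protein of kallikrein, read 9.84, 9.78, 10.05 and 9.93 in Rbpj+/+ and 7.69, 7.01 and 6.83 in Rbpj-/- livers, 6.62-fold lower (-2.73, SE 0.24, adjusted p = 0.000398). Serpina3n, an acute phase protein that inhibits granzyme B, read 4.83, 3.27, 3.74 and 4.11 against 6.49, 5.66 and 5.68, 3.87-fold higher (1.95, SE 0.38, adjusted p = 0.00872). Among Rbpj+/+ animals the SD was 0.12 for Serpina3k and 0.66 for Serpina3n, and neither gene overlapped between genotypes. Serpina3m, between both, was lower by only 0.60 (SE 0.21, adjusted p = 0.0644, or -0.30 and 0.355 on quantile-normalized values). It lost the call when Rbpj+/+_1155, Rbpj+/+_1024, Rbpj+/+_991, Rbpj-/-_N5 or Rbpj-/-_2866 was left out (adjusted p from 0.116 to 0.196).

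Serpina3h and Serpina3i made the closest contrast. Serpina3h, which RefSeq lists as a non-coding transcript, read 2.84, 1.91, 2.07 and 2.42 in Rbpj+/+ and 0.00, -0.94 and -0.44 in Rbpj-/- livers (-2.77, SE 0.30, adjusted p = 0.000906). Serpina3i read -1.74, -2.04, -1.06 and -0.27 against 0.37, 1.25 and 1.19 (2.22, SE 0.42, adjusted p = 0.00853). A second probe of Serpina3i was well above background on 0 of 4 Rbpj+/+ and 3 of 3 Rbpj-/- arrays, with a level at least 4.80-fold higher in Rbpj-/- livers (adjusted p = 0.00290). This second probe resembles that of Serpina3h over 57 bases with 6 differences, and yet both moved in opposite directions. All 6 lie in the stretch printed here, with differing bases in capitals (5′ to 3′):
Serpina3h probe, bases 15 to 44: GgtcaaaTtAaTtctaTgttgtgAaaaaat
Serpina3i second probe, bases 12 to 41: AgtcaaaGtTaAtctaCgttgtgGaaaaat
The design places the second probe away from the first, at chr12:105427811-105427870 on the opposite strand, so the assignment of its signal to Serpina3i is uncertain.

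Smaller differences were found for the remaining Serpina3 copies. Serpina3c read 6.85, 5.90, 7.04 and 7.25 in Rbpj+/+ and 5.72, 5.65 and 5.05 in Rbpj-/- livers (-1.29, SE 0.34, adjusted p = 0.0266), without overlap. Serpina3g, a serpin of leukocytes that inhibits lysosomal cathepsins, read 1.73, 2.19, 2.03 and 2.49 against 3.44, 2.41 and 3.67 (1.06, SE 0.32, adjusted p = 0.0451), with Rbpj-/-_N5 below the highest Rbpj+/+ animal. Serpina3f read -1.99, -0.97, -2.02 and -0.93 against 0.38, -1.41 and 0.18 (1.19, SE 0.48, adjusted p = 0.0997), with Rbpj-/-_N5 inside the range of Rbpj+/+. A second probe named Serpina3f gave 1.15 without overlap (adjusted p = 0.0404), but the design places it at chr12:105492556-105492615, next to the probe of Serpina3h, so its assignment is uncertain. Serpina3g lost its call without Rbpj+/+_1024, Rbpj-/-_N3 or Rbpj-/-_2866 (adjusted p from 0.106 to 0.146), and Serpina3f without Rbpj+/+_1155, Rbpj+/+_1024, Rbpj-/-_N3 or Rbpj-/-_2866 (from 0.188 to 0.287). Serpina3b differed by 0.10 and was not called (SE 0.73, adjusted p = 0.932). Serpina3a and Serpina3j could not be tested.

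Serpina6 and Serpina7 are the hormone carriers of the family, and only one of them was called. Serpina6, the corticosteroid-binding globulin, read 6.87, 6.50, 6.64 and 6.45 in Rbpj+/+ and 6.02, 6.31 and 7.46 in Rbpj-/- livers (-0.02, SE 0.33, adjusted p = 0.969). The Rbpj-/- animals lay on both sides of Rbpj+/+, as Rbpj-/-_N3 and Rbpj-/-_N5 were below all of its animals and Rbpj-/-_2866 was above them. Serpina7, the thyroxine-binding globulin, read 1.19, -0.97, -0.34 and 0.19 against 3.39, 2.49 and 2.88, 7.47-fold higher (2.90, SE 0.47, adjusted p = 0.00428). For Serpina7 the genotypes did not overlap.

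**Figure D4:**
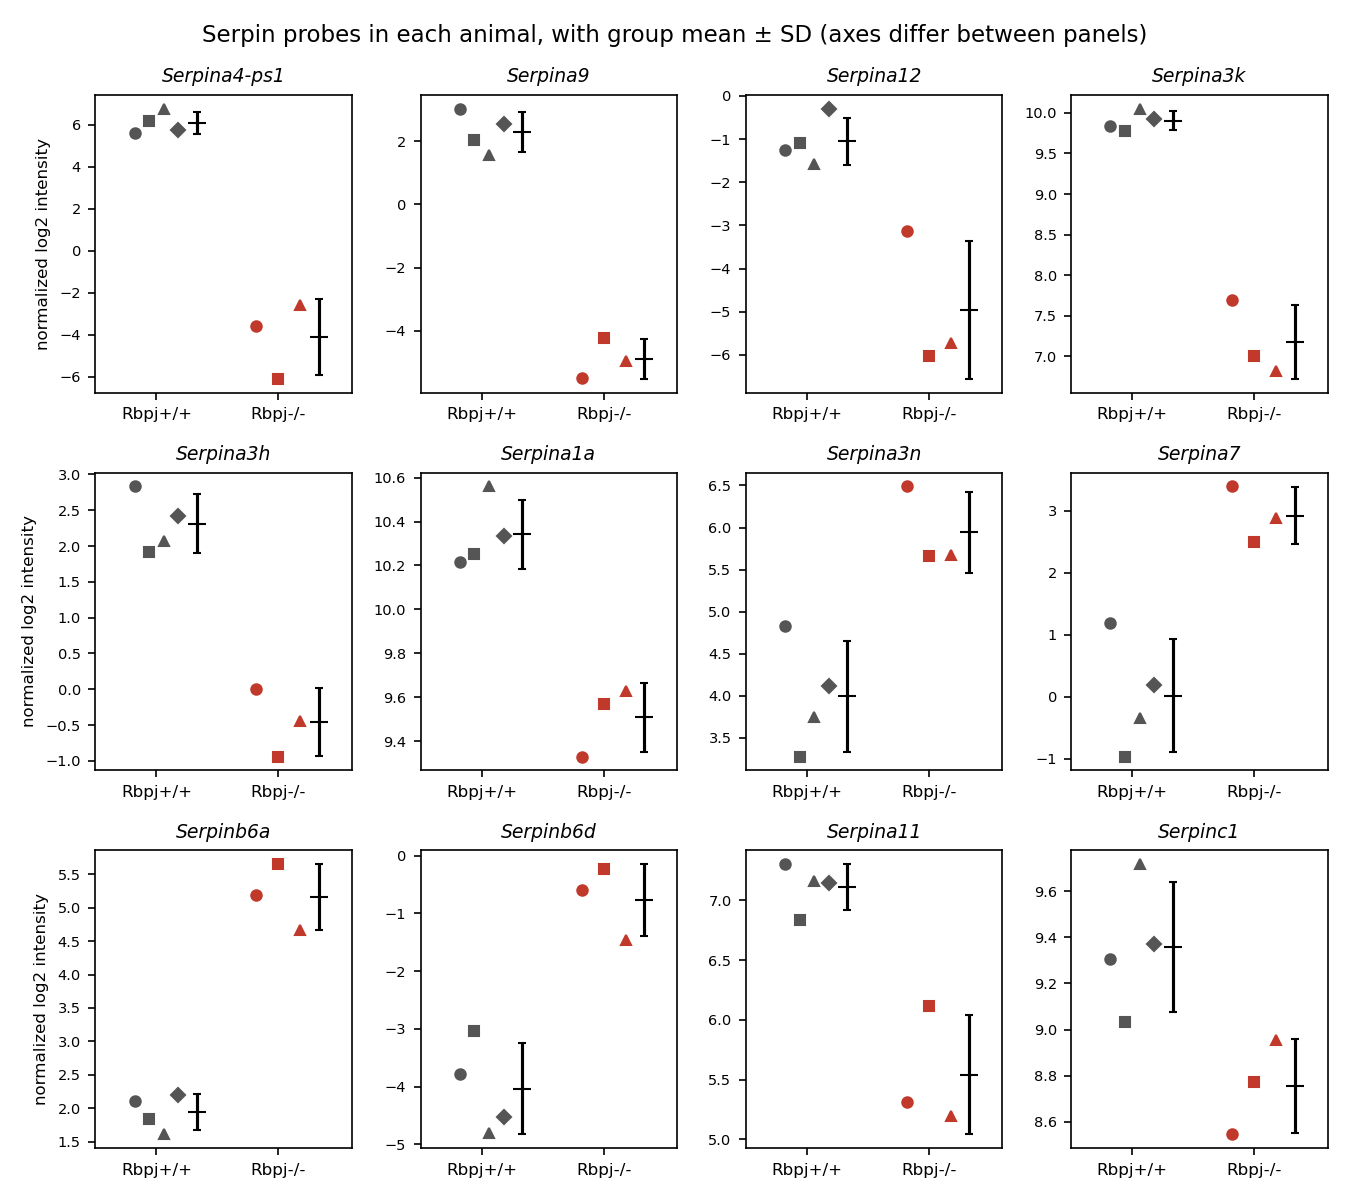
Normalized log2 intensity of 12 serpin probes in each Rbpj+/+ (grey) and Rbpj-/- animal (red), with mean and SD in black; symbols follow the order of animals in the text and axes differ between panels. Genotypes do not overlap in any panel, and Serpina4-ps1 in Rbpj-/- animals spans -6.14 to -2.59.

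Inhibitors of coagulation differed little. Serpinc1, which encodes antithrombin, read 9.31, 9.03, 9.72 and 9.37 in Rbpj+/+ and 8.55, 8.77 and 8.95 in Rbpj-/- livers (-0.60, SE 0.22, adjusted p = 0.0771). The difference was -0.12 on quantile-normalized values (adjusted p = 0.589), and the call was lost without Rbpj+/+_1155, Rbpj+/+_1024, Rbpj+/+_991, Rbpj-/-_N3 or Rbpj-/-_N5 (adjusted p from 0.116 to 0.218). Serpind1, heparin cofactor II and a thrombin inhibitor, read 7.91, 7.10, 7.75 and 7.82 against 7.28, 7.34 and 7.70 and was not called (-0.21, SE 0.24, adjusted p = 0.568). Serpina10, the protein Z-dependent inhibitor of factor Xa, was not called by either probe, and these differed in sign (-0.31 and 0.60). The brighter probe lies at chr12:104854887-104854946 and the other at chr12:104864964-104865023, so that they read different parts of the transcript.

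Fibrinolysis is restrained by inhibition of plasmin, and the gene of its main plasma inhibitor was slightly lower. Serpinf2, the alpha-2 antiplasmin of plasma, read 9.25, 8.66, 9.03 and 8.81 against 8.21, 8.18 and 8.38 (-0.68, SE 0.20, adjusted p = 0.0415, or -0.31 and 0.232 on quantile-normalized values). It lost the call without Rbpj+/+_1024 (adjusted p = 0.105), Rbpj-/-_N3 (0.112) or Rbpj-/-_N5 (0.134).

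Serping1, Serpinf1 and Serpinh1 fulfil separate functions. Serping1, the C1 inhibitor of complement and contact activation, read 8.40, 7.79, 8.37 and 8.70 in Rbpj+/+ and 8.55, 7.88 and 8.53 in Rbpj-/- livers, with a difference of 0.00 (SE 0.27, adjusted p = 0.994). Serpinf1, which encodes the non-inhibitory PEDF, read 7.96, 7.37, 8.10 and 8.15 against 6.97, 7.18 and 7.53 (-0.67, SE 0.25, adjusted p = 0.0831), while a second probe toward the other end of the gene gave 0.11 (adjusted p = 0.828). With the mean of both probes Serpinf1 was not called, nor was it on quantile-normalized values (-0.32, adjusted p = 0.201), and it lost the call without Rbpj+/+_1155, Rbpj+/+_1024, Rbpj+/+_991, Rbpj-/-_N3 or Rbpj-/-_N5 (adjusted p from 0.142 to 0.233). Serpinh1, the collagen chaperone HSP47 of the endoplasmic reticulum, read 2.82, 2.31, 2.91 and 2.85 against 3.90, 2.84 and 3.09 and was not called (0.55, SE 0.29, adjusted p = 0.188). Animal Rbpj+/+_1156 was the lowest for Serpinh1, and Rbpj-/-_N5 lay inside the range of Rbpj+/+. Of 9 markers of stellate cells and fibroblasts, the main source of collagen in liver, 7 were higher. Their mean per animal ranged from 1.86 to 2.11 in Rbpj+/+ and from 2.70 to 3.37 in Rbpj-/- livers.

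The largest rises of clade B were those of the Serpinb6 group, whose human counterpart inhibits cathepsin G and trypsin-like proteases inside cells. Serpinb6a, Serpinb6b and Serpinb6c were higher by 3.18 to 3.30, and for Serpinb6d a bound is given below. Serpinb6a read 2.11, 1.84, 1.61 and 2.20 in Rbpj+/+ and 5.19, 5.65 and 4.66 in Rbpj-/- livers, 9.37-fold higher (3.23, SE 0.27, adjusted p = 0.000353). Serpinb6c read 2.28, 1.85, 1.60 and 2.21 against 5.46, 5.78 and 4.62 (3.30, SE 0.30, adjusted p = 0.000488). Among Rbpj-/- animals Rbpj-/-_N5 was the highest and Rbpj-/-_2866 the lowest for both genes, and all lay above Rbpj+/+. Their probes differ at 3 of 42 aligned bases, and a second Serpinb6c probe, which gave 3.16, differs from that of Serpinb6a at 4 of 59 (93.2% identity), so it cannot be told apart whether one or both genes rose. The 4 differences of the latter pair lie in the stretch printed here, with differing bases in capitals (5′ to 3′):
Serpinb6a probe, bases 20 to 49: tgcaatgGcaATtatgaaataaagggcttT
Serpinb6c second probe, bases 21 to 50: tgcaatgAcaGCtatgaaataaagggcttA

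Serpinb6b and Serpinb6d were read by probes without such a likeness, as no probe of another serpin gene shared more than 55.8% and 47.6% of bases with them. Serpinb6b read -0.71, -1.15, 0.02 and 0.18 in Rbpj+/+ and 3.51, 3.07 and 1.72 in Rbpj-/- livers, 9.08-fold higher (3.18, SE 0.47, adjusted p = 0.00299). Serpinb6d read -3.78, -3.04, -4.80 and -4.53 against -0.60, -0.23 and -1.45. Since Serpinb6d was well above background on 0 of 4 Rbpj+/+ and 3 of 3 Rbpj-/- arrays, its level was at least 5.59-fold higher (limma adjusted p = 0.00227). Its lowest log2 difference under the alternative ways of processing was 0.65, a smaller rise than this bound. In Rbpj-/- livers, Rbpj-/-_2866 was the lowest animal for Serpinb6a, Serpinb6b, Serpinb6c and Serpinb6d. Serpinb6e, whose probe is close to that of Serpinb6c, could not be tested.

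Serpinb9, Serpinb1a and Serpinb8 completed the tested genes of clade B. Serpinb9, the inhibitor of granzyme B that protects cytotoxic lymphocytes from their own granules, was higher by 0.83 (SE 0.21, adjusted p = 0.0235). It ranged from -0.87 to -0.42 in Rbpj+/+ and from -0.10 to 0.42 in Rbpj-/- livers, without overlap. Serpinb1a, which inhibits neutrophil elastase and related proteases, was not called (0.93, SE 0.64, adjusted p = 0.318), and Rbpj-/-_2866 was its highest and Rbpj-/-_N5 its lowest Rbpj-/- animal. Serpinb8, an inhibitor of furin, ranged from 5.83 to 7.04 and from 7.13 to 7.56 without overlap and narrowly missed the threshold (0.70, SE 0.29, adjusted p = 0.114). Serpinb8 was called under 7 of 18 alternatives, among them quantile normalization (0.99, adjusted p = 0.0372).

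Clade B genes occur in 2 clusters on chromosomes 1 and 13, and most of them were not detected in liver. Serpinb8 was the only tested gene on chromosome 1. On chromosome 13, Serpinb1a, Serpinb6a, Serpinb6b, Serpinb6c, Serpinb6d and Serpinb9 were tested, while Serpinb6e, Serpinb1b and the further Serpinb9 copies in between were not. Of the 27 clade B genes, 13 were well above background on none of the 7 arrays.

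Leukocyte markers were read beside the clade B genes, since these are known from leukocytes. Beside these counts and those of the lists below stand all tested genes, of which 34.2% were called, 14.6% higher and 19.5% lower. All 7 macrophage markers were tested and 6 were higher, and their mean per animal was 3.54 to 3.98 in Rbpj+/+ and 5.23 to 5.47 in Rbpj-/- livers. Of 7 neutrophil markers 3 were higher, with means of -2.33 to 0.03 and 0.10 to 0.95, and of 4 tested T and NK cell markers 2 were lower, with means of 1.47 to 1.89 and 0.84 to 1.28. The part of these cells in the differences of clade B genes was not tested. Each of 10 hepatocyte markers was well above background on at least 1 array, and 6 of them were lower and none higher, with means of 7.74 to 8.37 against 7.60 to 7.82. All 6 falls were below 1 on the log2 scale, and these markers were not counted on quantile-normalized values. The part of hepatocytes in the falls of plasma serpins was not tested either.

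The remaining marker lists were short. Calls among cholangiocyte, erythroid and megakaryocyte markers were no more frequent than among all tested genes (34.2%). Of 7 tested cholangiocyte markers 2 were higher, with means of -0.81 to -0.16 in Rbpj+/+ and -0.67 to 0.33 in Rbpj-/- livers. Of 8 endothelial markers 4 were higher and 1 was lower, with means of 1.24 to 1.79 and 2.0 to 2.33. Of 4 tested erythroid markers 1 was lower (3.86 to 5.39 and 2.75 to 4.87), and of 4 tested markers of megakaryocytes and platelets 1 was higher (-1.65 to -0.56 and -0.82 to -0.60). Of 5 markers of keratinocytes and squamous cells, in which several clade B genes are known to be active, Trp63 alone was tested and was higher, while Dsg3 reached the mark of well above background in no animal.

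The sequence TTCNNNGAA, which is bound by STAT factors of the acute phase response, was searched on both strands of the same promoters. It was found in 8 of 50 serpin genes with a promoter and in 8.30% of all promoters. Of the 10 genes that were higher, 4 held it, namely Serpina3f, Serpina3g, Serpina3i and Serpinb6a, and of the 10 that were lower it was present in Serpina11. Serpinb6a had 2 matches, and its promoter (GRCm38.p6, chr13:34002745-34003044, minus strand) is printed with them in capitals, because the gene was called higher:
Serpinb6a promoter: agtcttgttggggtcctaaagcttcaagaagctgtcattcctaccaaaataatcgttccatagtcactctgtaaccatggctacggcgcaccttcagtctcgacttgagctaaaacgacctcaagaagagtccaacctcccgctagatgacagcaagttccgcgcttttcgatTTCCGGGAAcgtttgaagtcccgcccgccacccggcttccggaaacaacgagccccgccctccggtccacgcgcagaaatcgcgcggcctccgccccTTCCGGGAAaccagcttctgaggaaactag
Serpinb6b, Serpinb6c and Serpinb6d held no match, and the promoters of these 4 genes shared only 44.9% to 48.6% of their bases. GTTAAT and TTCNNNGAA were picked for the text after 13 motifs had been searched, and a match is not evidence of binding. Other motifs were found in more of the higher genes. TGGGAA, searched for RBPJ, was present in 6 of the 10 higher and 2 of the 10 lower genes, and in 25.6% of all promoters. The NF-kB motif was present in 6 and 5 of them, and in 50.8% of all promoters.

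The proteases of plasma and of the hepatocyte surface, among them the targets of plasma serpins, were mostly lower. Of 20 tested genes of this list, 13 were lower and 1 was higher, with a median of -0.59 beside -0.13 for all tested genes. F11, the coagulation factor XI that antithrombin and the C1 inhibitor control, fell by 1.69 on the log2 scale (SE 0.21, adjusted p = 0.00155). Proc, the anticoagulant protein C, fell by 1.12 (adjusted p = 0.00731). The only rise was that of Plat, the tissue plasminogen activator, by 1.70 (adjusted p = 0.0116). Plat was well above background on 1 of 4 Rbpj+/+ and 3 of 3 Rbpj-/- arrays. It thus passed the filter through Rbpj-/- only, which favoured a rise, and the size of the rise is uncertain. Plau, the urokinase, reached the mark of well above background in no animal. Of this list, 9 genes were called on quantile-normalized values, and 8, 6, 7, 6 and 5 were called without Rbpj+/+_1155, Rbpj+/+_1024, Rbpj+/+_991, Rbpj-/-_N3 and Rbpj-/-_N5, respectively.

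Intracellular and leukocyte proteases, the targets of clade B serpins, gave a mixed picture. Of 14 lysosomal and cytosolic proteases 6 were higher and 2 were lower, with a median of 0.44. Ctss, a cathepsin of antigen-presenting cells, rose by 1.87 (adjusted p = 0.00135), and the asparaginyl protease Lgmn by 1.60 (adjusted p = 0.00145). Ctsz and Ctsa were lower (-0.66 and -0.55). Of 7 tested granule proteases of leukocytes, Gzmb, the target of Serpinb9 and Serpina3n, was higher (1.46, adjusted p = 0.0245). Gzmb was dim and well above background on 3 of 4 Rbpj+/+ arrays, so it passed the filter through Rbpj-/- only, which favoured a rise. Gzmk, Tpsb2 and Elane were lower, Gzmk by 1.01 and Tpsb2 by 0.63. The median of the 7 tested genes was still 0.77, as Ctsg (0.77), Gzma (0.87) and Prtn3 (0.93) lay above 0 without a call. No granule protease of this list was called by limma on quantile-normalized values, with 3 at an unadjusted p below 0.05, and 2 were called without Rbpj+/+_1156 or Rbpj+/+_991 and 1 without Rbpj+/+_1024, Rbpj-/-_N3 or Rbpj-/-_N5.

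Protease inhibitors outside the serpin family changed in both directions too. Of 25 tested genes 6 were higher and 9 were lower, with a median of -0.18. Spink1, a trypsin inhibitor (named Spink3 on the array), rose by 6.26 (SE 0.51, adjusted p = 0.000301), and Timp1, an inhibitor of metalloproteinases, by 4.81 (adjusted p = 0.00764). Mug1, a plasma inhibitor of the macroglobulin family, fell by 1.15 on the log2 scale (adjusted p = 0.00442), and Pebp1 fell by 1.06 (adjusted p = 0.00882).

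Receptors, cofactors and secretory partners of serpins were measured as well. Of 13 tested genes 5 were higher and 2 were lower, with a median of 0.26. Plaur, the receptor of urokinase, rose by 3.21 (adjusted p = 0.0113), and Fkbp10, which acts with HSP47 on procollagen, by 1.50 (adjusted p = 0.00437). Lman1, a cargo receptor on the way from the endoplasmic reticulum that carries alpha-1 antitrypsin, was lower (-0.71, adjusted p = 0.0430), as was Vtn, the vitronectin of plasma and matrix (-0.52, adjusted p = 0.0717). Without Rbpj-/-_N3 or without Rbpj-/-_N5, 4 genes of this list were called.

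Acute phase genes were read because Serpina3n and Serpina1 are counted among them. Of 20 genes 7 were higher and 4 were lower, with a median of 0.83. Lcn2 rose by 5.28 (adjusted p = 0.00643) and Orm3 by 4.41 (adjusted p = 0.000442), whereas Hamp was lower (-1.62, adjusted p = 0.0426) and Fgb too (-0.69, adjusted p = 0.0345). Against 11 calls with all animals, 6 acute phase genes were called without Rbpj+/+_1024 and 7 without Rbpj+/+_991 or Rbpj-/-_N3.

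The 26 serpin genes without a tested probe comprise Serpina3a, Serpina3j and Serpina5 in clade A, Serpini1 and Serpini2 in clade I, 20 genes of clade B, and Serpine2. In clade B they are Serpinb10, Serpinb11, Serpinb12, Serpinb13, Serpinb1b, Serpinb1c, Serpinb2, Serpinb3a, Serpinb3b, Serpinb3c, Serpinb3d, Serpinb5, Serpinb6e, Serpinb7, Serpinb9b, Serpinb9c, Serpinb9d, Serpinb9e, Serpinb9f and Serpinb9g. Serpini1, the neuroserpin, was well above background on 0 of 4 Rbpj+/+ and 2 of 3 Rbpj-/- arrays with one of its probes, which gives a level at least 1.20-fold higher in Rbpj-/- livers without a test.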

How the data were processed

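Total RNA of whole liver was labelled with Cy3 and hybridised to mouse 8x60K oligonucleotide arrays with 60-base probes, 1 array per animal. The authors deposited, per the file headers, Feature Extraction 10.7.3.1 output, in which the intensity is the background-subtracted and detrended signal of a spot, not normalized between arrays. The deposited quality marks, coded as 0 or 1, flag single spots. The authors also deposited log2 values in the series matrix, which matched quantile-normalized intensities centred per probe (r = 1) although the methods give a percentile shift. Column medians of that matrix lay between -0.0039 and 0.

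Control probes and compromised spots (non-uniform, population outlier) were dropped, without loss for any serpin probe, and no spot was saturated. Replicate spots were averaged as log2 intensities before each array was shifted by its 75th percentile. To be tested, a probe had to be positive, significant and well above background in all animals of 1 or both genotypes. The test was limma 3.58.1 (R 4.3.3) in place of the methods' shrinkage t, and the tested probe with the highest mean stood for its gene. Current symbols were assigned through accessions (28256 probes), symbols (2206) or synonyms (174). In simulated data for this comparison (24511 probes, 200 changed by 1.5 on the log2 scale), 142 changed probes were recovered with 21 false calls. None was called by limma when nothing was changed. The simulated noise was independent between probes, without effects of array, row or scaling, and far fewer probes were changed than the 8241 called in the real data. These rates therefore do not carry over to the real calls.

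Alternatives were normexp correction (offset 50), quantile normalization, no filter, a percentile taken from the probes that every array detected, detection required on each of the 7 arrays, no removal of compromised spots, limma-trend, a threshold of 0.05, series matrix values, the mean of a gene's probes, each animal left out and, added after the data were seen, both arrays with brighter dim probes left out together. Members, lists and tests were chosen with earlier results of these data known. All serpin genes with a tested probe could be named, except for 1 that is included in the counts but not reported here, array values are given for calls of at least 1 on the log2 scale and for a fixed set of plasma serpins, and of each list the 2 largest calls in each direction are named. Positions of probes follow the array's design (mm9). Promoters are from RefSeq (GRCm38.p6) and were found for 50 of the 61 genes. Motifs searched on both strands were TTCNNNGAA and a form with 1 more base in the gap for STAT factors, GTTAAT and the full HNF1 palindrome that contains it, CAAAGTCCA for HNF4, CATTCC for TEAD factors, TGANTCA for AP-1, TTGCGCAA for C/EBP, TGGGAA for RBPJ, CAGACA for SMAD factors, TATAAA for the TATA box and, by name alone, the NF-kB and glucocorticoid receptor motifs. Probes were aligned without gaps over at least 40 bases. Python 3.11.15, pandas 2.3.3, scipy and matplotlib 3.10.9 were used.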

Additional observations from a re-analysis of the deposited data

Results flagged for a closer look

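In 2 of the 34 serpin genes checked, 1 Rbpj+/+ animal stood apart from the other 3 by its gap relative to the range of the group, which chance gives in about 1 of 20 groups. Serpina3m was at 7.25 in Rbpj+/+_1156, next to 7.48 to 7.50 in the others. Serpinh1 was at 2.31 in Rbpj+/+_1156, next to 2.82 to 2.91 in the others. The 3 Rbpj-/- animals were too few for this check.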

How the results depend on the processing

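Of the 26 called serpin genes, 13 kept call and direction under every alternative that tested them, and 1 changed direction under any of them. The number of called genes was 26, with 20 to 26 when 1 animal was left out, 9 to 11 higher and 10 to 15 lower. The count of lower genes was 7 on quantile-normalized and 7 on series matrix values. Without a filter on dim probes, 14 genes were called and 6 were lower, over more genes tested. The cause of the other changes was not tested. Among the lists, called target proteases of plasma numbered 7 at a threshold of 0.05, 9 with normexp, 9 with quantile normalization, 2 without filter and 7 with the series matrix (5 to 15 with 1 animal left out). Granule proteases numbered 1, 2, 0, 0 and 0 in the same order, 1 with the percentile over detected probes and 2 without Rbpj+/+_1156 and Rbpj-/-_N3 together (1 to 3 with 1 animal left out), with 3, 2 and 3 at an unadjusted p below 0.05 by limma where none was called. Without filter, 3 lysosomal and cytosolic proteases, 7 other inhibitors, 1 receptor or partner and 4 acute phase genes were called, and 7 of the latter at a threshold of 0.05. With 1 animal left out these lists gave 6 to 8, 10 to 17, 4 to 8 and 6 to 14.

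Reversed differences were those of Serpina1c on series matrix values (0.0054) and of genes that were not called. Serpina10 was 0.0002 with the series matrix and 0.14 with the mean of its probes. Serpina3b was -0.26 with normexp and -0.17, -0.22 and -0.45 (range with 1 animal left out -0.45 to 0.77) without Rbpj+/+_1155, Rbpj+/+_1024 and Rbpj-/-_N3. Serpina6 was 0.25 with normexp, 0.25 with quantile normalization, 0.059 with the percentile over detected probes, 0.26 with the series matrix, 0.14 with the mean of probes, 0.06, 0.27 and 0.12 without Rbpj+/+_1155, Rbpj-/-_N3 and Rbpj-/-_N5, and 0.23 without Rbpj+/+_1156 and Rbpj-/-_N3. Serpind1 was 0.027 with normexp, 0.14 with quantile normalization and 0.15 with the series matrix. Serping1 (range -0.17 to 0.22) was -0.17, -0.11 and -0.10 without Rbpj+/+_1156, Rbpj-/-_N3 and Rbpj-/-_2866, and -0.28 without Rbpj+/+_1156 and Rbpj-/-_N3.

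No paired analysis was possible because the genotypes share no animal numbers. With 4 and 3 arrays, small differences could not be told from the spread between animals, and dim probes were limited by the background of Rbpj+/+_1156 and Rbpj-/-_N3.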
